A study of Sus scrofa with 11 samples.

Results

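The matrix metalloproteinases (MMP), their tissue inhibitors (TIMP) and the related ADAM and ADAMTS proteases were followed in full-thickness skin wounds of diabetic and non-diabetic Yucatan minipigs. Members were the genes whose symbol is MMP, TIMP, ADAM or ADAMTS followed by a number, a rule that uses the symbol alone. There were 61 such genes among the 30376 genes measured: 20 MMP, 4 TIMP, 18 ADAM and 19 ADAMTS genes. Expressed, meaning 0.5 FPKM or more in 4 wounds or more, were 48 of them (17 MMP, 4 TIMP, 12 ADAM and 15 ADAMTS genes), out of 13956 expressed genes in all. FPKM is a read count scaled by gene length and by library size, so levels can be set side by side between genes. RNA was sequenced from 7 wounds of a female minipig made diabetic with streptozotocin, an agent toxic to the insulin-producing beta cells, and from 4 wounds of an untreated female minipig of the same breed. All wounds were punched into the skin of the back and excised on day 10. Insulin had been given to the diabetic minipig after induction and was stopped 1 week before wounding. Each group was 1 animal, so diabetes and the individual animal cannot be told apart, and every error given here is a spread between wounds of the same minipig.

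These families are zinc-dependent proteases that cut the extracellular matrix and the surface of cells. MMPs degrade collagens, gelatin and other matrix proteins, ADAMs are membrane proteins of which several shed cytokines, growth factors and receptors from the cell surface, and ADAMTS enzymes are secreted and process procollagens or cleave proteoglycans. TIMPs bind the active site of MMPs, and TIMP3, which is held in the matrix, also inhibits several ADAM and ADAMTS enzymes. In healing skin, keratinocytes, fibroblasts and infiltrating leukocytes each make a different subset of these genes, and the balance between proteases and inhibitors is a standard subject of chronic wound research.

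The wounds differed in what they held apart from the groups. Between 28314785 and 40168372 reads fell on genes in a diabetic wound and between 32961018 and 36872400 in a non-diabetic wound. Diabetic replicate 4 and non-diabetic replicate 1 stood apart from the other 9 wounds on the first principal component, and the summed level of 7 keratinocyte markers was 38.3 and 284 FPKM in these 2 wounds against 1616 to 6469 FPKM in the others. The 8 neutrophil markers summed to 42.7 and 301 FPKM in the same 2 wounds and to 3801 to 12590.3 FPKM in the rest, but S100A8, S100A9 and S100A12, which keratinocytes also express, made up at least 87.9% of that sum in every wound. Of the other markers of that list, CXCR2 was low in both wounds (0.215 and 0.0434 against 1.08 to 2.75 FPKM), CSF3R was 3.70 and 2.75 against 3.45 to 11.06 FPKM, and ELANE was 1.24 and 0.689 against 0.331 to 1.01 FPKM. Skeletal muscle markers summed to 1822 FPKM in diabetic replicate 3 and to at most 5.14 FPKM elsewhere. Summed macrophage markers overlapped, from 249 to 407 FPKM in diabetic and from 151 to 274 FPKM in non-diabetic wounds. Of these 8 markers, 3 were called higher in diabetic wounds, beside 1.35% of all tested genes, and MSR1 had a negative log2 fold change (-0.29, not called). Fibroblast markers also overlapped (19109 to 52734 and 34338 to 64988 FPKM), and none of the 8 was called. Library names begin with L (diabetic replicates 1 to 3, non-diabetic replicates 1 and 2) or R, a letter whose meaning the labels do not give. The endings of the names are shared within each group and differ between the groups. The labels do not give their meaning either, and whatever they mark cannot be told apart from diabetes. In bulk tissue, fewer cells of a type and less RNA per cell cannot be told apart.

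Between diabetic and non-diabetic wounds, 1 expressed gene of these families was higher, the inhibitor TIMP3, and 3 were lower, the proteases ADAM19, ADAMTS6 and ADAMTS12. Among all genes tested, 1.35% were called higher and 1.66% lower (limma, adjusted p below 0.05 and an absolute log2 fold change above 0.5), against 2.08% and 6.25% of the 48 members. The same 4 genes were the only members whose groups did not overlap, 1 with every diabetic wound above every non-diabetic wound (2.69% of all tested genes) and 3 with every diabetic wound below (2.96% of all tested genes). None of the 17 MMP genes was called. At an unadjusted p below 0.05 there were 13 of 48 members, against 2567 of the 13956 tested genes. Fold changes of the members were negative for 33 and positive for 15, with a median of -0.18 on the log2 scale, where all tested genes had 47.7% negative and a median of 0.01. Medians by family were -0.20 for MMP, -0.14 for ADAM and -0.22 for ADAMTS genes, and 0.27 for the 4 TIMP genes.

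**Figure D1:**
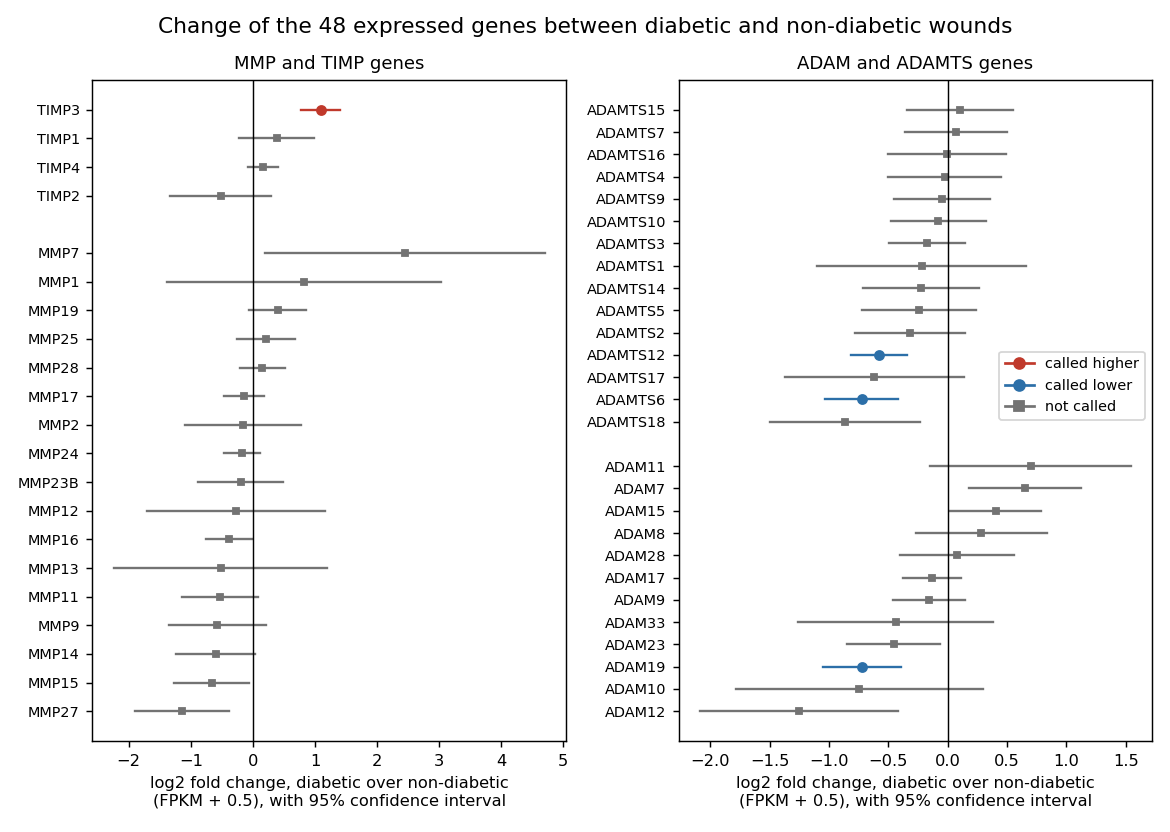
Log2 fold change of FPKM + 0.5, diabetic over non-diabetic, for the 48 expressed genes, sorted within each family, with 95% confidence intervals from limma. TIMP3 (red) lies to the right of 0, ADAM19, ADAMTS6 and ADAMTS12 (blue) lie to the left, and the widest intervals belong to MMP7, MMP1 and MMP13.

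TIMP3, the matrix-bound inhibitor, was the member with the smallest adjusted p. Its level ran from 27.0 FPKM through a median of 38.6 to 44.8 FPKM in the 7 diabetic wounds, and was 16.6, 15.3, 20.4 and 14.2 FPKM in the 4 non-diabetic wounds. The lowest diabetic wound was thus above the highest non-diabetic wound. The means were 36.2 ± 6.17 FPKM (SD, n = 7) and 16.6 ± 2.70 FPKM (SD, n = 4), and limma gave a log2 fold change of 1.09 with a standard error of 0.15 (adjusted p = 0.00213). Without the 2 wounds that stood apart the log2 fold change was 1.07 (adjusted p = 0.0180, limma). The gene lies on the minus strand of chromosome 5 from 12185816 to 12242599 (Sscrofa11.1), inside the span of SYN3 on the opposite strand, and SYN3 had at most 0.0723 FPKM in any wound. TIMP1 and TIMP4 are likewise annotated inside the oppositely transcribed synapsin genes SYN1 and SYN2, which reached at most 1.09 and 1.09 FPKM. The library preparation kept the strand of the RNA, while the strand setting of the read counting is not given in the sources used here.

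The other 3 inhibitors did not pass the test. TIMP1, a soluble inhibitor of most secreted MMPs, had 141, 188 and 355 FPKM as the lowest, median and highest diabetic value and 149.7, 122, 167 and 240.2 FPKM in non-diabetic wounds (limma log2 fold change 0.38, SE 0.27, adjusted p = 0.509). Diabetic replicates 1 and 5 were its highest wounds at 349 and 355 FPKM, and the rest of the diabetic wounds lay within the non-diabetic range. TIMP2, which inhibits MMPs and also takes part in activating pro-MMP2 on the cell surface, had the highest level of the 4, with 192, 514 and 733 FPKM in diabetic and 968, 676, 423 and 483 FPKM in non-diabetic wounds (limma log2 fold change -0.52, SE 0.37, adjusted p = 0.507). Its 5.03-fold range over the 11 wounds ran across both groups, with the lowest values in diabetic replicates 1 and 2 and the highest in non-diabetic replicate 1. TIMP4 had the lowest level of the 4 inhibitors, at 1.23 to 1.75 FPKM in diabetic wounds and 1.42, 1.17, 1.05 and 1.28 FPKM in non-diabetic wounds (limma log2 fold change 0.16, adjusted p = 0.487). It had 183 to 391 reads in diabetic and 212 to 289 reads in non-diabetic wounds, and the groups overlapped.

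Among the ADAM genes, ADAM19, a protease that sheds neuregulin and other membrane ligands, was lower in diabetic wounds. Its diabetic values ran from 11.5 through a median of 17.7 to 19.5 FPKM, and its non-diabetic values were 28.5, 27.6, 24.7 and 24.5 FPKM. Every diabetic wound was below every non-diabetic wound, and the 3 diabetic wounds with names in L were below the 4 in R. The means were 16.0 ± 3.17 FPKM (SD, n = 7) and 26.3 ± 2.02 FPKM (SD, n = 4), and limma gave a log2 fold change of -0.72 with a standard error of 0.15 (adjusted p = 0.0239). With the name letter in the model the value was -0.74 (adjusted p = 0.0196, limma), and without the 2 wounds that stood apart it was -0.74 (adjusted p = 0.0653, limma). ADAM19 spans 65715445 to 65814761 on the plus strand of chromosome 16 and overlaps NIPAL4 on the opposite strand, which had 0.506 to 11.0995 FPKM.

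ADAM12, a gene of mesenchymal cells whose protein cleaves insulin-like growth factor binding proteins, had the most negative fold change of the expressed members and did not pass the test. Diabetic replicates 1 to 3, with names in L, had 8.20, 6.09 and 4.64 FPKM, and replicates 4 to 7, with names in R, had 2.37, 2.18, 1.78 and 1.77 FPKM. Non-diabetic wounds had 8.51, 6.12, 11.2 and 9.33 FPKM, so diabetic replicate 1 lay within the non-diabetic range, replicate 2 just below it, and the diabetic wounds in R were the lowest. Limma gave a log2 fold change of -1.25 with a standard error of 0.38 (adjusted p = 0.101), and -1.20 with the name letter in the model (adjusted p = 0.0839, limma). Without diabetic replicate 1 it was called lower, at -1.45 (adjusted p = 0.0343, limma). ADAM10, the sheddase of Notch receptors and cadherins, showed the same order among diabetic wounds. It had 13.0 and 14.4 FPKM in diabetic replicates 1 and 2, 2.45 to 4.20 FPKM in the other 5, and 5.58, 6.18, 14.2 and 13.0 FPKM in non-diabetic wounds (limma log2 fold change -0.75, SE 0.48, adjusted p = 0.446). ADAM17, which releases tumour necrosis factor and ligands of the epidermal growth factor receptor, had the narrowest relative range of the expressed members, 1.45-fold over all 11 wounds, with 10.1 to 14.6 FPKM in diabetic and 10.99 to 14.2 FPKM in non-diabetic wounds (limma log2 fold change -0.13, 95% confidence interval -0.37 to 0.11). On the opposite strand, ADAM17 overlaps IAH1 (24.1 to 33.1 FPKM) and ADAM10 overlaps LOC100523526 (5.03 to 10.5 FPKM).

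The most abundant ADAM genes besides ADAM19 were ADAM15, ADAM33 and ADAM9, and none of them was called. ADAM15, which binds integrins through its disintegrin domain, had 15.1, 19.7 and 27.2 FPKM as the lowest, median and highest diabetic value and 11.01, 19.9, 13.9 and 17.6 FPKM in non-diabetic wounds (limma log2 fold change 0.40, adjusted p = 0.247). ADAM33, a gene of mesenchymal cells, had 7.05, 17.7 and 27.7 FPKM against 38.1, 25.4, 13.4 and 16.8 FPKM, and the sheddase ADAM9 had 13.5, 16.6 and 19.5 FPKM against 18.7, 14.8, 18.2 and 23.6 FPKM. The groups overlapped in all 3. Of the remaining expressed ADAM genes, ADAM8 and ADAM28 lay between 3.11 and 10.5 FPKM, and ADAM7, ADAM11 and ADAM23, whose proteins lack the catalytic zinc site, lay between 0.302 and 4.02 FPKM. ADAM23 was called lower only without diabetic replicate 6 among the settings tried, at -0.57 (adjusted p = 0.0374, limma). Summed over its genes, the ADAM family came to 104 to 117 FPKM in diabetic and 121 to 134 FPKM in non-diabetic wounds and did not overlap, while the summed MMP, TIMP and ADAMTS levels did. Without ADAM19, a sum added after the values were seen, the ADAM genes came to 88.9 to 97.1 FPKM in diabetic and 96.4 to 107.8 FPKM in non-diabetic wounds, which overlapped.

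Both ADAMTS genes that were lower in diabetic wounds lie on chromosome 16. ADAMTS12, which cleaves cartilage oligomeric matrix protein, spans 19547003 to 19920780 on the minus strand and had 8.53, 10.4 and 12.7 FPKM as the lowest, median and highest diabetic value, against 17.0, 14.4, 16.8 and 16.4 FPKM. All diabetic wounds lay below all non-diabetic wounds (means 10.7 ± 1.43, SD, n = 7, and 16.1 ± 1.21, SD, n = 4; limma log2 fold change -0.58, SE 0.11, adjusted p = 0.0151). ADAMTS6, a close relative of ADAMTS10 on the minus strand from 43702519 to 44010820, had 2.89, 3.90 and 4.77 FPKM in diabetic and 7.35, 5.13, 7.43 and 7.49 FPKM in non-diabetic wounds. Its groups did not overlap either, and the gap between the highest diabetic wound and non-diabetic replicate 2 was 0.367 FPKM (limma log2 fold change -0.73, SE 0.14, adjusted p = 0.0175). ADAMTS6 overlaps the centromere gene CENPK on the same strand, which had 1.22 to 3.48 FPKM, so reads in the shared stretch cannot be assigned with certainty. Without the 2 wounds that stood apart neither gene was called, at log2 fold changes of -0.59 (adjusted p = 0.0535) for ADAMTS12 and -0.69 (adjusted p = 0.0880) for ADAMTS6 (limma). Both calls also required non-diabetic replicates 1, 3 and 4, and that of ADAM19 all 4 non-diabetic replicates and diabetic replicate 3, since leaving out any 1 of these raised the adjusted p to between 0.0504 and 0.0833 (limma), with log2 fold changes of -0.56 to -0.57 for ADAMTS12, -0.68 to -0.69 for ADAMTS6 and -0.69 to -0.76 for ADAM19.

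**Figure D2:**
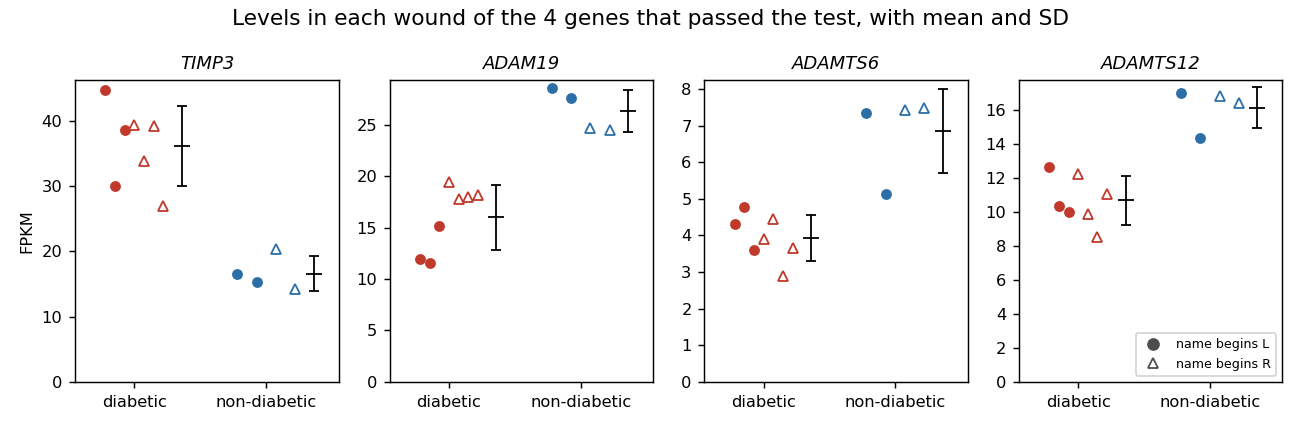
FPKM of TIMP3, ADAM19, ADAMTS6 and ADAMTS12 in each wound (circles, library name beginning with L; triangles, with R), with the mean and SD of each group beside the points. In each panel the diabetic wounds (red) lie on 1 side of the non-diabetic wounds (blue).

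The ADAMTS genes with the highest levels were not called, and their groups overlapped. ADAMTS2, which removes the amino-terminal propeptide of fibrillar procollagens, had 43.3, 70.8 and 82.7 FPKM in diabetic and 110.2, 78.9, 71.8 and 71.6 FPKM in non-diabetic wounds (limma log2 fold change -0.32, 95% confidence interval -0.78 to 0.15, adjusted p = 0.470). ADAMTS10, which associates with fibrillin microfibrils, had 35.3, 53.5 and 70.8 FPKM against 69.8, 56.7, 46.6 and 55.4 FPKM. ADAMTS4, an aggrecanase, had 25.2, 34.4 and 59.5 FPKM against 33.3, 28.3, 48.0 and 35.7 FPKM. For both the fold change was close to 0 (-0.08 and -0.02 on the log2 scale) and its sign depended on the setting. ADAMTS17 ranged from 12.7 through 25.7 to 40.5 FPKM in diabetic wounds and was 62.0, 45.3, 27.8 and 22.4 FPKM in non-diabetic wounds, again with overlap (limma log2 fold change -0.62, adjusted p = 0.377). Of the proteoglycan-cleaving group, 5 of 7 genes were expressed (ADAMTS1, ADAMTS4, ADAMTS5, ADAMTS9 and ADAMTS15) and none was called, with log2 fold changes between -0.24 and 0.10. The 3 procollagen amino-propeptidase genes, ADAMTS2, ADAMTS3 and ADAMTS14, had log2 fold changes between -0.32 and -0.17, and none was called. ADAMTS14 overlaps LOC100526189 on the same strand, which had 3.65 to 11.8 FPKM, so reads in their shared stretch cannot be assigned with certainty. The most negative value of the family belonged to ADAMTS18, at -0.87 with a standard error of 0.29 (limma, adjusted p = 0.129).

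The MMP transcripts were dominated by MMP2, the gelatinase of fibroblasts, which made up 65.7% to 81.9% of the summed MMP level in each wound. MMP2 had 881, 2396 and 3958 FPKM as the lowest, median and highest diabetic value and 4090.1, 2609, 1593 and 1962 FPKM in non-diabetic wounds. The groups overlapped over almost their whole range, and the log2 fold change of -0.16 (95% confidence interval -1.09 to 0.78, adjusted p = 0.890, limma) has an interval that spans both directions. MMP14, the membrane-bound collagenase that activates pro-MMP2, had 229, 471 and 581 FPKM in diabetic and 887, 676, 449 and 500.0 FPKM in non-diabetic wounds (limma log2 fold change -0.60, SE 0.29, adjusted p = 0.306). MMP23B, a membrane-anchored MMP, had 46.4, 111 and 139 FPKM against 162, 114, 92.8 and 86.3 FPKM (limma log2 fold change -0.20, adjusted p = 0.797). MMP19, a secreted MMP known from basal keratinocytes and macrophages, had 29.3, 49.5 and 59.3 FPKM against 42.3, 34.2, 29.0 and 31.2 FPKM (limma log2 fold change 0.40, adjusted p = 0.351), and 5 of the 7 diabetic wounds were above all non-diabetic wounds.

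**Figure D3:**
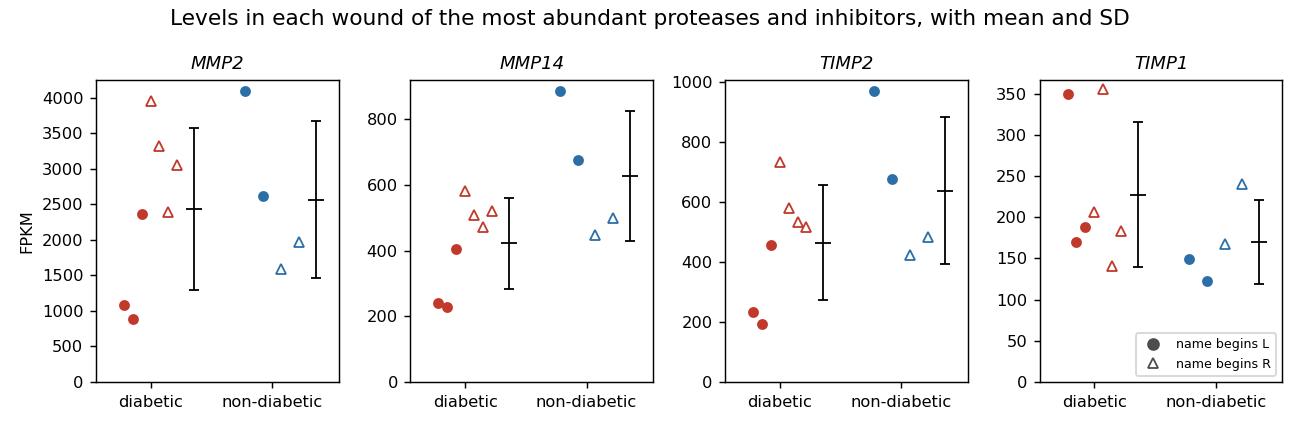
FPKM of MMP2, MMP14, TIMP2 and TIMP1 in each wound (circles, library name beginning with L; triangles, with R), with the mean and SD of each group. MMP2, MMP14 and TIMP2 are lowest in diabetic replicates 1 and 2 and highest in non-diabetic replicate 1, and the groups overlap in every panel.

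Within the diabetic minipig the level of these abundant genes followed the letter of the library name. For 12 expressed members the 3 diabetic wounds in L were all below the 4 in R (MMP2, MMP11, MMP14, MMP15, MMP19, MMP23B, MMP24, TIMP2, ADAM19, ADAMTS2, ADAMTS7 and ADAMTS17), for 2 they were all above (ADAM10 and ADAM12), and for 34 they overlapped. These counts are 25.0% and 4.17% of the 48 expressed members, beside 12.3% and 10.2% of all tested genes. MMP2 was 1078, 881 and 2365 FPKM in the L wounds and 3958, 3322, 2396 and 3053 FPKM in the R wounds. In the non-diabetic minipig the order was the opposite for 11 of these 12 genes, whose 2 L wounds were above the 2 R wounds (MMP24 overlapped), and for ADAM10 and ADAM12, whose L wounds were below. Of all tested genes with diabetic L below R, 66.7% had the non-diabetic L wounds above R. Irrespective of the diabetic order, 13 of the 48 members (27.1%) had them above, beside 25.2% of all tested genes. Summed fibroblast markers were also lower in the diabetic L wounds, with 22590.0, 19109 and 37179 FPKM in the diabetic L wounds and 50281, 51103, 46110.3 and 52734 FPKM in the diabetic R wounds, but 3 collagen genes made up 86.9% to 92.6% of that sum. Of the 8 markers, 4 were lower in every L wound (COL1A1, COL1A2, COL3A1 and THY1), 3 overlapped (DCN, LUM and FBLN1), and PDGFRA was higher in every L wound (31.7 to 45.4 against 20.3 to 31.4 FPKM). Their part in the levels of MMP2, MMP14 and TIMP2 was not tested.

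On chromosome 9, 8 MMP genes lie side by side between 33214590 and 33616700, all on the minus strand, in the order MMP7, MMP20, MMP27, MMP8, MMP1, MMP3, MMP12 and MMP13. MMP1, MMP8 and MMP13 are collagenases, MMP3 is stromelysin, MMP7 is the epithelial matrilysin and MMP12 the macrophage elastase. MMP1, MMP3 and MMP12 are genes of injured or inflamed tissue known to respond to the transcription factor AP-1. To show where its heptamer stands in the pig genome, the 150 bases upstream of the annotated start of MMP3, MMP12 and MMP9, the inducible gelatinase on chromosome 17, are printed from the RefSeq assembly Sscrofa11.1 on the strand of the gene, with the AP-1 heptamer in capitals.
MMP3 (chr9:33453996-33454145, minus strand): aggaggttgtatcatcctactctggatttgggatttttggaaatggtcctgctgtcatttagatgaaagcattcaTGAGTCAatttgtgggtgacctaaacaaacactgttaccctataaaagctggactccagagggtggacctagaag
MMP12 (chr9:33483631-33483780, minus strand): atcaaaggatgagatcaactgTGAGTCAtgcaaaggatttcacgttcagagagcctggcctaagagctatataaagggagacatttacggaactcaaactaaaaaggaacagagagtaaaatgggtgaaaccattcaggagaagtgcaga
MMP9 (chr17:48179540-48179689, plus strand): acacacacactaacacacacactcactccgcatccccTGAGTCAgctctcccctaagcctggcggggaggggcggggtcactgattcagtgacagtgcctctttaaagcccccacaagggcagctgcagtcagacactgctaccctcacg
The heptamer searched was TGACTCA together with its reverse complement TGAGTCA, within 250 bases before the annotated start of every gene. It was found at MMP3, MMP9, MMP12 and MMP19, which is 4 of the 61 members (6.56%), and at 3.19% of all 30362 genes with a complete window. MMP1 was not among the genes with a match. The 3 printed sequences were chosen because they hold a match, and a match is a description of the letters only.

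MMP1, MMP7, MMP12 and MMP13 varied more between wounds than any other expressed member, and MMP1, MMP3 and MMP12 were high in the same wounds. MMP1 had 113, 16.2, 6.00, 5.92, 58.4, 1.66 and 7.81 FPKM in diabetic replicates 1 to 7, a 68.3-fold range within 1 minipig, and 2.17, 4.35, 9.94 and 24.8 FPKM in non-diabetic wounds. MMP12 had its highest values, 8.05 and 3.85 FPKM, in the same diabetic replicates 1 and 5, was between 0.0543 and 1.06 FPKM in the other 5, and had 1.05, 1.39, 1.60 and 1.81 FPKM in non-diabetic wounds. MMP3 did not reach the filter on low values but had 206 and 158 reads (3.51 and 2.95 FPKM) in diabetic replicates 1 and 5, at most 11 reads in any other diabetic wound and at most 4 reads in any non-diabetic wound. TIMP1, the inhibitor that pairs with these secreted enzymes, was also highest in diabetic replicates 1 and 5. MMP13 had 1.12, 4.66 and 19.5 FPKM as its lowest, median and highest diabetic value, with the highest in diabetic replicate 1, but its highest level of all was the 25.9 FPKM of non-diabetic replicate 4, against 0.991, 5.91 and 6.07 FPKM in the other non-diabetic wounds. None of the 3 tested genes was called (log2 fold changes 0.83 for MMP1, -0.27 for MMP12 and -0.52 for MMP13, with standard errors of 1.01, 0.66 and 0.78).

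**Figure D4:**
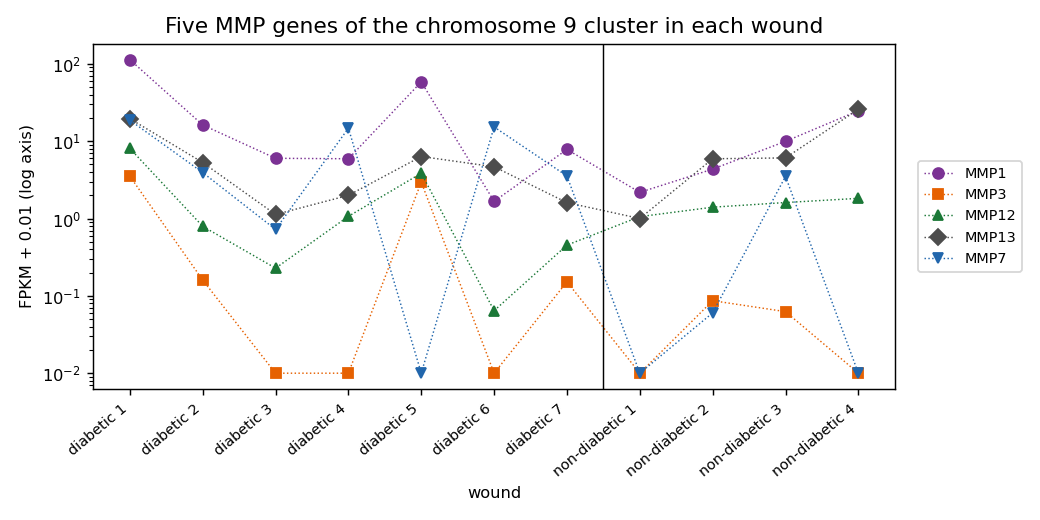
FPKM + 0.01 on a log axis for 5 MMP genes of the chromosome 9 cluster in each of the 7 diabetic and 4 non-diabetic wounds, with dotted lines that only join the points of a gene. MMP1, MMP3 and MMP12 peak together in diabetic replicates 1 and 5, whereas MMP7 is at 0 in diabetic replicate 5.

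MMP7 and MMP27 had fold changes above 1 log2 unit in size and did not pass the test. MMP7 had 18.7, 3.92, 0.712, 14.7, 0, 15.3 and 3.54 FPKM in diabetic replicates 1 to 7 and 0, 0.0503, 3.49 and 0 FPKM in non-diabetic wounds. It was listed at 0 in 1 diabetic and 2 non-diabetic wounds, and both groups reached 3.49 FPKM or more (limma log2 fold change 2.45, SE 1.03, adjusted p = 0.232). MMP7 was 14.7 FPKM in diabetic replicate 4, the wound with the lowest summed keratinocyte markers. In non-diabetic replicate 1, the other wound low in these markers, it was 0 FPKM. The part of keratinocytes in the level of MMP7 was not tested. MMP27 was 0.451, 0.776 and 3.41 FPKM at the lowest, median and highest diabetic wound and 3.20, 2.79, 3.40 and 2.48 FPKM in non-diabetic wounds (limma log2 fold change -1.14, SE 0.35, adjusted p = 0.102). Diabetic replicate 6 was the highest of all 11 wounds, diabetic replicate 7 followed at 2.11 FPKM, and the other 5 diabetic wounds were at most 0.836 FPKM. Without diabetic replicate 6, MMP27 was called lower (log2 fold change -1.36, adjusted p = 0.0178, limma), and it was also called by limma's voom on recovered reads.

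The remaining MMP genes covered a wide span of levels and none was called. MMP9, the gelatinase of neutrophils and keratinocytes, had 11.2 to 41.6 FPKM in diabetic and 23.3 to 50.5 FPKM in non-diabetic wounds (limma log2 fold change -0.57, adjusted p = 0.437). In the 2 wounds with low keratinocyte markers it was 20.8 and 27.4 FPKM. MMP11, stromelysin-3 of stromal fibroblasts, had 18.2 to 48.2 FPKM against 28.6 to 58.9 FPKM (limma log2 fold change -0.54, adjusted p = 0.341). Of the 7 membrane-anchored genes (MMP14, MMP15, MMP16, MMP17, MMP23B, MMP24 and MMP25), 6 had a negative fold change, from -0.67 for MMP15 to -0.14 for MMP17, and MMP25 had 0.21. MMP28, a secreted MMP of keratinocytes, had 6.96 to 12.4 FPKM against 7.51 to 9.67 FPKM.

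Proteases were then set against inhibitors within each wound, as ratios of FPKM values that are not tested. The summed MMP level was 2.61, 4.34 and 5.35 times the summed TIMP level at the lowest, median and highest diabetic wound and 4.67, 4.40, 3.72 and 3.69 times in the 4 non-diabetic wounds. The groups overlapped, and the mean log2 ratio differed by -0.01 (2.03 ± 0.36 in diabetic and 2.03 ± 0.17 in non-diabetic wounds, SD, n = 7 and 4). The difference was -0.19 with MMP2 left out of the sum and -0.36 when log2 levels were averaged over the genes of each family, so its size depended on how the genes were weighted. MMP2 to TIMP2 was 4.51, 5.18 and 5.93 in diabetic wounds and 4.23, 3.86, 3.76 and 4.06 in non-diabetic wounds, so every diabetic wound was above every non-diabetic wound although neither gene was called by itself. MMP2 was the 1 protease of 44 expressed (2.27%) whose ratio to TIMP2 was above without overlap, where 3.88% of all tested genes were, so the protease share was not above that of genes in general, and 0 of 44 were below, where 0.165% of all tested genes were. Ratios to TIMP3 were below without overlap for 24 of the 44 proteases (54.5%) and above for 0, but 59.1% of all tested genes were below and 0.208% above, so the protease share was near that of genes in general.

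**Figure D5:**
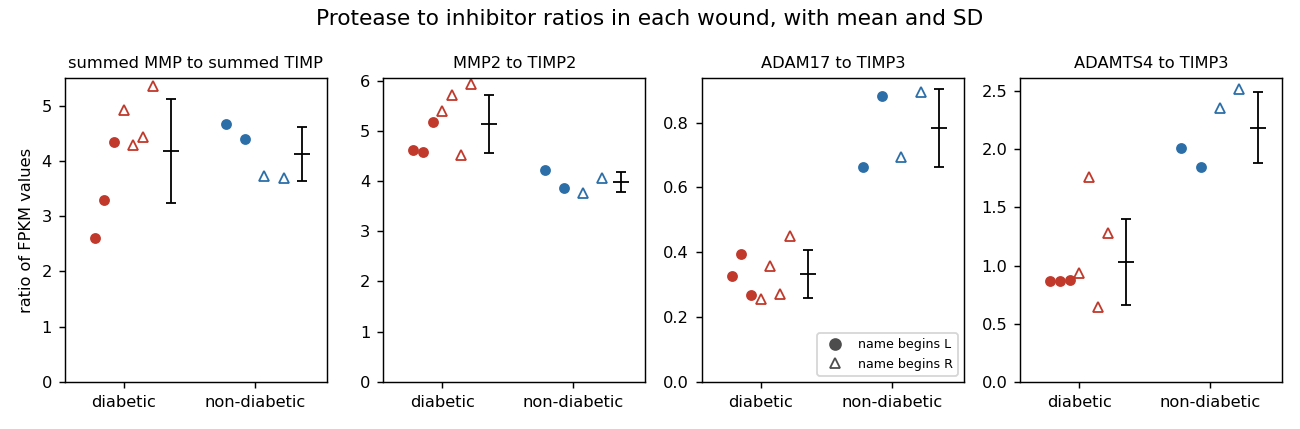
Ratios of FPKM values in each wound (circles, library name beginning with L; triangles, with R), with the mean and SD of each group, for summed MMP to summed TIMP, MMP2 to TIMP2, ADAM17 to TIMP3 and ADAMTS4 to TIMP3. The summed ratio overlaps between the groups, MMP2 to TIMP2 is 4.51 or more in every diabetic wound, and both ratios to TIMP3 are lower in every diabetic wound. The same holds for the ratio to TIMP3 of 59.1% of all tested genes.

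Among the enzymes that TIMP3 is known to inhibit, the ratio of ADAM17 to TIMP3 was 0.257, 0.327 and 0.451 at the lowest, median and highest diabetic wound and 0.664, 0.881, 0.695 and 0.893 in non-diabetic wounds. ADAMTS4 to TIMP3 was 0.640, 0.878 and 1.76 in diabetic and 2.01, 1.85, 2.35 and 2.51 in non-diabetic wounds, and ADAMTS5 to TIMP3 was 0.0447 to 0.109 and 0.186 to 0.395. These 3 ratios did not overlap between the groups, and ADAM10 to TIMP3 did (0.0900 to 0.480 and 0.337 to 0.913). For 59.1% of all tested genes the ratio to TIMP3 was likewise lower in diabetic wounds without overlap, so this is not particular to these enzymes. Relative to TIMP2, TIMP3 was 0.0524 to 0.192 in diabetic and 0.0171 to 0.0482 in non-diabetic wounds, without overlap. MMP1 to TIMP1, MMP9 to TIMP1, MMP14 to TIMP2 and TIMP1 to TIMP2 all overlapped. For the MMP9 to TIMP1 ratio the values were 0.0390 to 0.245 in diabetic and 0.139 to 0.413 in non-diabetic wounds.

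Genes that work with these families were read from lists of related genes. The lists are short, so 1 called gene makes a large share of a list. Of 8 ADAMTS-like and decysin genes tested, 1 was called higher (12.5%, beside 1.35% of all tested genes) and 0 lower. It was ADAMDEC1, a soluble relative of the ADAMs known from macrophages and dendritic cells, at 31.7, 40.5 and 70.6 FPKM in diabetic and 18.2, 12.5, 6.45 and 17.8 FPKM in non-diabetic wounds (limma log2 fold change 1.72, SE 0.30, adjusted p = 0.0116). The groups did not overlap. Macrophage markers were 249 to 407 FPKM in diabetic and 151 to 274 FPKM in non-diabetic wounds in sum, with overlap. Their part in the level of ADAMDEC1 was not tested. ADAMDEC1 lies on chromosome 14 between ADAM28 and ADAM7, all on the plus strand, with 1082 bases between its end and the start of ADAM7. ADAM7 had 0.514, 1.28 and 2.11 FPKM in diabetic and 0.598, 0.582, 0.595 and 0.744 FPKM in non-diabetic wounds (limma log2 fold change 0.65, adjusted p = 0.129, and 0.78 without diabetic replicate 7, adjusted p = 0.0307), and ADAM28 had 4.18 to 10.5 and 4.91 to 6.67 FPKM.

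Other inhibitors and clearance receptors (9 tested) held 1 gene called higher and 1 called lower, beside 1.35% and 1.66% of all tested genes. Both were testicans, which are secreted proteoglycans that affect MMP activation. SPOCK2 was higher in diabetic wounds (5.75 ± 1.11, n = 7, against 3.29 ± 0.420 FPKM, n = 4, SD; limma log2 fold change 0.71, adjusted p = 0.0217) and SPOCK1 was lower (1.07 ± 0.292 against 2.14 ± 0.472 FPKM; limma log2 fold change -0.76, adjusted p = 0.0301). The endocytic receptor LRP1 had the highest mean of that list and a log2 fold change of -0.04. None of 11 activators of pro-proteases was called, and the most abundant of these, the epidermal kallikrein KLK7, was at most 0.639 FPKM in the 2 wounds with few keratinocyte transcripts. None of 9 partners of ADAM10 and ADAM17 was called, the most abundant being the iRhom gene RHBDF1 (log2 fold change 0.20). Of 15 genes of shed substrates, 1 was higher (6.67%, beside 1.35% of all tested genes) and 0 lower. This was the adhesion molecule L1CAM, with means of 3.88 and 2.33 FPKM (limma log2 fold change 0.61, adjusted p = 0.0309), while TNFRSF1A, the most abundant, had 0.03. Of 10 proteoglycan and collagen substrates tested, 0 were higher and 1 lower (10%, beside 1.66% of all tested genes). The gene was ACAN, which encodes aggrecan, a protein that several ADAMTS enzymes cut. It had 0.0467 to 0.580 FPKM in diabetic and 0.935 to 4.30 FPKM in non-diabetic wounds (limma log2 fold change -1.91, adjusted p = 0.00479). All diabetic wounds but the highest were under 0.5 FPKM, with 12 to 144 reads per diabetic wound. ACAN thus met the filter only through the non-diabetic wounds, where it was high, and was not tested with the filter at 1 FPKM. COL3A1, the most abundant substrate gene, had -0.26. None of 12 cysteine and serine proteases of the matrix was called, HTRA1 being the most abundant with a log2 fold change of -0.14. Without the 2 wounds that stood apart, ADAMDEC1 and ACAN were still called and SPOCK1, SPOCK2 and L1CAM were not. The call of SPOCK2 was also lost without non-diabetic replicate 1, 3 or 4 (log2 fold change 0.66 to 0.74, adjusted p 0.0543 to 0.0806, limma), that of SPOCK1 with no filter, with quantile normalization and without diabetic replicate 5 or 7 or non-diabetic replicate 1, 2 or 4 (-0.77 to -0.67, adjusted p 0.0613 to 0.102 over these single wounds, limma), and that of L1CAM without diabetic replicate 3, 5 or 7 or any 1 non-diabetic wound (0.58 to 0.65, adjusted p 0.0505 to 0.0965, limma). Median log2 fold changes of the lists were 0.29 for ADAMTS-like and decysin genes, 0.25 for activators, 0.31 for other inhibitors and clearance, 0.18 for partners of ADAM10 and ADAM17, 0.41 for shed substrates, -0.29 for proteoglycan and collagen substrates and 0.02 for the other matrix proteases, beside 0.01 for all tested genes.

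The other 13 members stayed under the filter on low values. ADAM29 and ADAM30 had 0 reads in every wound, and ADAM3A had 1 read in 1 wound. MMP8, the neutrophil collagenase, had 0 to 4 reads per wound. Of the other neutrophil markers, MPO, ELANE and CXCR2 reached 0.717, 1.24 and 2.75 FPKM, and CSF3R reached 11.06 FPKM. S100A8, S100A9 and S100A12, which keratinocytes also express, reached 3349, 3887 and 5348 FPKM. The enamel protease MMP20, ADAM2, ADAM5, ADAM22, ADAMTS8, ADAMTS13, ADAMTS19 and ADAMTS20 were at most 0.349 FPKM in any wound. In reads, ADAM22 had 7 to 104 per wound, ADAMTS8 12 to 93, ADAMTS13 17 to 101, ADAMTS20 2 to 45 and MMP20 0 to 26, and ADAM2, ADAM5 and ADAMTS19 had at most 11. MMP3 is described with its chromosome 9 neighbours. At these depths a difference between the groups was not detectable for the genes with only a few reads.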

How the data were processed

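Strand-marked poly(A) libraries, 1 per wound, were sequenced from 7 diabetic and 4 non-diabetic wounds. The authors cleaned reads (fastp), aligned these on Sscrofa11.1 (HISAT2 2.2.1) (StringTie 2.2.3 is also named), counted with featureCounts 2.0.6 and deposited FPKM values, whose formula is not given in the sources used here. FPKM times gene length came out as whole reads for nearly all values within 0.05 reads, and depth is the sum of those reads. Groups were taken from the sample titles. Here, log2(FPKM + 0.5) was compared with limma (eBayes with trend), with Benjamini-Hochberg adjustment over the 13956 genes that had 0.5 FPKM or more in 4 libraries or more, instead of the authors' count test. Calls needed an adjusted p below 0.05 and an absolute log2 fold change above 0.5. Fold changes are on the scale with the 0.5 added, which understates the change of low genes. The fit was first tested on simulated data with independent noise for each gene and wound and planted changes of 1 log2 unit or more. That test did not cover smaller changes or genes that vary together between wounds. The genes described in full are the called members, all TIMP genes, the 4 most abundant of each protease family and members with an absolute log2 fold change above 1. The families and lists to describe were chosen with earlier results of these data known, and the members of a family then by symbol alone. Upstream sequences were read from the RefSeq assembly at the coordinates of the deposited genes, and all 61 members have the same start in its annotation. The 23 alternatives changed the pseudocount, filter, scaling, spread, weights, covariates, wounds and voom. R 4.3.3, limma 3.58.1, Python 3.11.15, pandas 2.3.3 and matplotlib 3.10.9 were used.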

Additional observations from a re-analysis of the deposited data

Results flagged for a closer look

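In 6 of 96 groups of wounds (48 expressed genes, 2 groups each) the highest or lowest wound lay far from the others relative to the range of its group, and chance flags about 1 in 20 groups. MMP7 was 3.49 FPKM in non-diabetic replicate 3 and at most 0.0503 FPKM in the other non-diabetic wounds. ADAMTS6 was 5.13 FPKM in non-diabetic replicate 2, below the 7.35 FPKM of the next wound, and remained above all diabetic wounds. ADAM23 was 1.15 FPKM in diabetic replicate 6, next to 0.595 FPKM. ADAM7 was 0.744 FPKM in non-diabetic replicate 4, next to 0.598 FPKM. ADAMTS14, which overlaps LOC100526189 on the same strand, was lowest at 3.73 FPKM in diabetic replicate 1, where the next wound had 6.49 FPKM. ADAMTS16 was lowest at 0.892 FPKM in non-diabetic replicate 3, where the next wound had 1.64 FPKM.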

How the results depend on the processing

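TIMP3 was called higher under 22 of the 23 alternatives, and ADAM19, ADAMTS6 and ADAMTS12 lower under 16, 18 and 18. With array weights 2 members were called higher, TIMP3 and MMP19. Leaving out 1 wound gave 1 to 2 members higher and 0 to 5 lower, and without the 2 wounds that stood apart 0 were lower. With the replicate number as a block, 0 members were higher and 0 lower, and 11 and 5 genes in all, but the numbers did not pair the wounds (correlations of deviations -0.27, 0.22, 0.07 and -0.48 for numbers 1 to 4, and 0 of 4 non-diabetic wounds correlated best with their own number). ADAM12 was also called lower with array weights and MMP27 with voom. Of the related genes 5 were called, 0 with the block, 4 with no filter (SPOCK1 lost), 4 with the filter at 1 FPKM (ACAN not tested) and 7 with array weights. There were 6 with quantile normalization (SPOCK1 lost, CTSK and FN1 gained), 2 without the 2 wounds that stood apart, and 2 to 6 when 1 wound was left out. The log2 ratio of summed MMP to summed TIMP level lay between -0.07 and 0.10 when 1 wound was left out and was -0.36 from mean log2 values.

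The sign of uncalled fold changes turned for 10 genes, among them MMP13, whose value was -0.52 with all wounds. With array weights it became 0.0094 for ADAMTS4, 0.038 for ADAMTS10, 0.11 for ADAMTS16, 0.19 for MMP2 and 0.051 for MMP23B. With the block it became 0.033 for ADAMTS1, -0.13 for ADAMTS7 and 0.058 for ADAMTS9, and ADAMTS16 became 0.00058 with a pseudocount of 1 and 0.020 with quantile normalization. Leaving out 1 wound gave -0.037 to 0.17 for ADAM28, -0.43 to 0.031 for ADAMTS1, -0.15 to 0.12 for ADAMTS4, -0.0023 to 0.18 for ADAMTS7, -0.20 to 0.046 for ADAMTS9, -0.17 to 0.021 for ADAMTS10, -0.17 to 0.12 for ADAMTS16, -0.35 to 0.098 for MMP2 and -1.22 to 0.16 for MMP13. The causes were not tested. With 1 minipig per group, p-values cover the spread between wounds and not that between animals.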
